A study of Mus musculus with 20 samples.

Results

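The Gadd45 genes Gadd45a, Gadd45b and Gadd45g, taken by symbol from the deposited gene table, are 3 of its 38784 genes, and their RNA and ribosome footprints were followed in mouse livers after knockdown of Eif3m, which encodes a subunit of the translation initiation factor eIF3. The mice were FVB/N, aged 6 to 8 weeks, and were given siRNA in lipid nanoparticles at 0.5 mg/kg by tail vein, with 1 injection in 5 days. The siRNA was against Eif3m or, in the controls, a scrambled luciferase sequence, so every animal of both groups had received nanoparticles and an siRNA. Livers of 3 Eif3m and 3 control mice were taken at day 9, and of 2 Eif3m and 2 control mice at day 13, and the labels tie 1 RNA and 1 footprint library to each of the 10 animals. Whole liver was ground, so the values mix all its cell types, and for any gene fewer cells of a type and less RNA per cell cannot be told apart. Day 9 RNA libraries were made with KAPA mRNA capture and day 13 RNA libraries with NeoPrep, so kit and day cannot be told apart in RNA. All footprint libraries were made with Epicenter ART-seq. Animal codes and the form of the library labels also differ between the days in both assays. Day therefore cannot be told apart from the set of animals and libraries, in RNA or in footprints.

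The Gadd45 proteins are small nuclear proteins with no known enzyme activity that act by binding partners. They bind the kinase MEKK4 (Map3k4) upstream of p38 and JNK, the replication clamp PCNA, the cell cycle inhibitor p21 (Cdkn1a) and the Cdk1 and cyclin B complex, and they take part in growth arrest, DNA repair and active DNA demethylation. Gadd45a is a classical target of p53 and is also induced by growth arrest and stress without p53, Gadd45b is known as a gene induced by NF-kB and TGF-beta and, in liver, during regeneration and by activators of the nuclear receptor CAR (Nr1i3), and Gadd45g as a cytokine-induced member.

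In RefSeq on GRCm38.p6, Gadd45a (gene ID 13197) lies at chr6:67035096-67037407, Gadd45b (17873) at chr10:80930091-80932204 and Gadd45g (23882) at chr13:51846675-51848475. The 250 bases before each start are shown because the 3 genes differed in their response; capitals mark the 5 motifs searched, which were chosen after the sequences had been seen. Gadd45a is on the minus strand (window chr6:67037408-67037657), Gadd45b and Gadd45g are on the plus strand (windows chr10:80929841-80930090 and chr13:51846425-51846674), and each is written along its own strand from 5′ to 3′.
Gadd45a: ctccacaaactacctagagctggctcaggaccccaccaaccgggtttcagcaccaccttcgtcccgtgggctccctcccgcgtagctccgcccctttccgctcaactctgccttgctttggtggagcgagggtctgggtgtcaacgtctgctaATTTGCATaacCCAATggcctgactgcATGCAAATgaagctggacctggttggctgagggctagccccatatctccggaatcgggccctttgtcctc
Gadd45b: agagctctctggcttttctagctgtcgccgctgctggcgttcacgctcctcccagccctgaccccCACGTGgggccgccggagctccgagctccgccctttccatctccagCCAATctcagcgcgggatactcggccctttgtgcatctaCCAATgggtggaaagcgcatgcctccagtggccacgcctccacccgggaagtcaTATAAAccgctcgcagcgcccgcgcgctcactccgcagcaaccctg
Gadd45g: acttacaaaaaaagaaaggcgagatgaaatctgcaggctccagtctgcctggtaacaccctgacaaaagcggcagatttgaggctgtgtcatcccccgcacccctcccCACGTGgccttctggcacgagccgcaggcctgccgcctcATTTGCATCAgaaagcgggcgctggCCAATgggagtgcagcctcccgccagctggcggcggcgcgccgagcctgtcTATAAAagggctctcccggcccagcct

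The octamer ATGCAAAT, read on both strands, occurred 2 times before Gadd45a and 1 time before Gadd45g, and 1.6% of 32851 RefSeq windows of the same length held it. The amino acid response core TGATGCAA, the kind of site at which ATF4 binds, occurred 1 time before Gadd45g, where it overlapped the octamer, and in 0.791% of windows. The CCAAT box, with the letters CCAAT, occurred 1, 2 and 1 times before Gadd45a, Gadd45b and Gadd45g and in 33.8% of windows. The E box CACGTG and the TATA box letters TATAAA each occurred 1 time before Gadd45b and 1 time before Gadd45g, and in 6.02% and 12.4% of windows. A match describes these letters and no more.

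Total counts ran from 27.4 to 39.02 M (mega) in day 9 RNA, from 4.96 to 26.4 M in day 13 RNA, from 4.50 to 7.69 M in day 9 footprints and from 1.64 to 6.52 M in day 13 footprints. The shallowest RNA library was day 13 Eif3m replicate 2, and the shallowest footprint library was day 13 Eif3m replicate 1. Levels are given as CPM, counts per 1 M counts after TMM scaling within RNA or within footprints. The target was reduced as labelled: Eif3m RNA averaged 7.74 ± 0.506 CPM in Eif3m livers and 74.6 ± 1.09 CPM in control livers at day 9 (SD, n = 3 each), and 17.8 ± 3.58 CPM in Eif3m livers and 291 ± 70.0 CPM in control livers at day 13 (SD, n = 2 each). Every Eif3m library lay below every control library of its day, in RNA and in footprints. Transcripts of hepatocytes were abundant in all groups, but the summed level of 10 hepatocyte markers was lower in every Eif3m liver than in any control liver of its day. In RNA it was 111584 to 124351 CPM in Eif3m and 153734 to 159410 CPM in control livers at day 9. At day 13 it was 154453 to 215707 CPM in Eif3m and 268445 to 309523 CPM in control livers. In footprints it was 118824 to 141519 CPM in Eif3m and 179117 to 214070 CPM in control livers at day 9. The day 13 sums were 130396 to 160260 CPM in Eif3m and 250437 to 252068 CPM in control livers. Of these markers 2, 2, 5 and 3 fell in that order, where 5.67%, 16.0%, 14.7% and 12.4% of all genes were called. The number of these markers called changed in each comparison when single libraries were left out. The part of this shift in the Gadd45 values was not tested.

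Gadd45a was higher with Eif3m siRNA in both assays on both days, and more so at day 13 than at day 9. At day 9 its RNA stood at 15.5, 17.6 and 15.0 CPM in the Eif3m livers, against 8.16, 6.75 and 6.16 CPM in the control livers. The groups did not overlap, and the lowest Eif3m liver was far above the highest control liver. The log2 change was 1.19 (SE 0.16, edgeR quasi-likelihood test, adjusted p = 0.00137), a mean of 16.0 ± 1.36 CPM in Eif3m livers against 7.03 ± 1.03 CPM in control livers (SD, n = 3 each). At day 13 its RNA stood at 11.6 and 11.7 CPM in the Eif3m livers, against 0.951 and 0.871 CPM in the control livers. The replicates of each group were close together, and the change was 3.67 on the log2 scale (SE 0.25, edgeR adjusted p = 1.2e-05). Among the genes tested in RNA it ranked 440 of 16444 at day 9 and 92 of 16444 at day 13 by the size of the rise.

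Gadd45a footprints, which count ribosomes on its mRNA, moved the same way. At day 9 they stood at 23.6, 34.9 and 21.1 CPM in the Eif3m livers, against 7.67, 7.86 and 6.73 CPM in the control livers. The controls were tightly grouped and the Eif3m livers spread more widely, all above them, with a log2 change of 1.84 (SE 0.21, edgeR adjusted p = 1.27e-05). At day 13 they stood at 61.8 and 92.3 CPM in the Eif3m livers, against 3.48 and 5.33 CPM in the control livers. These were the highest Gadd45a footprint levels of the study, and the change was 4.15 on the log2 scale (SE 0.34, edgeR adjusted p = 6.88e-07), rank 43 of 12213 genes by the size of the rise, against rank 120 at day 9. The control values at day 13 rest on 6 and 10 counts, and the Eif3m values on 108 and 675 counts. The rises within each day kept an adjusted p below 0.05 under each of 17 alternative settings, with the largest at 0.0101 in day 9 RNA and 1.70e-04 in day 9 footprints, then 3.41e-04 in day 13 RNA and 7.52e-05 in day 13 footprints.

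In RefSeq, the interval of the lncRNA gene E230016M11Rik overlaps that of Gadd45a, and no RefSeq gene overlaps Gadd45b or Gadd45g. The counting is not stated to use strand, so reads from the shared stretch cannot be assigned with certainty. E230016M11Rik had 13, 24 and 10 counts in the Eif3m livers and 45, 11 and 16 counts in the control livers in day 9 RNA, where Gadd45a had 643, 813 and 574 counts in the Eif3m livers and 233, 263 and 200 counts in the control livers. In day 13 RNA E230016M11Rik had 7.83 and 5 counts in the Eif3m livers and 14 and 15.5 counts in the control livers. Gadd45a had 197 and 61.5 counts in those Eif3m livers and 19.5 and 18.5 counts in those control livers. The counts of both genes were close in the day 13 control RNA, so this limit weighs most on the day 13 RNA values of Gadd45a. In footprints E230016M11Rik had at most 3 counts in any library.

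**Figure D1:**
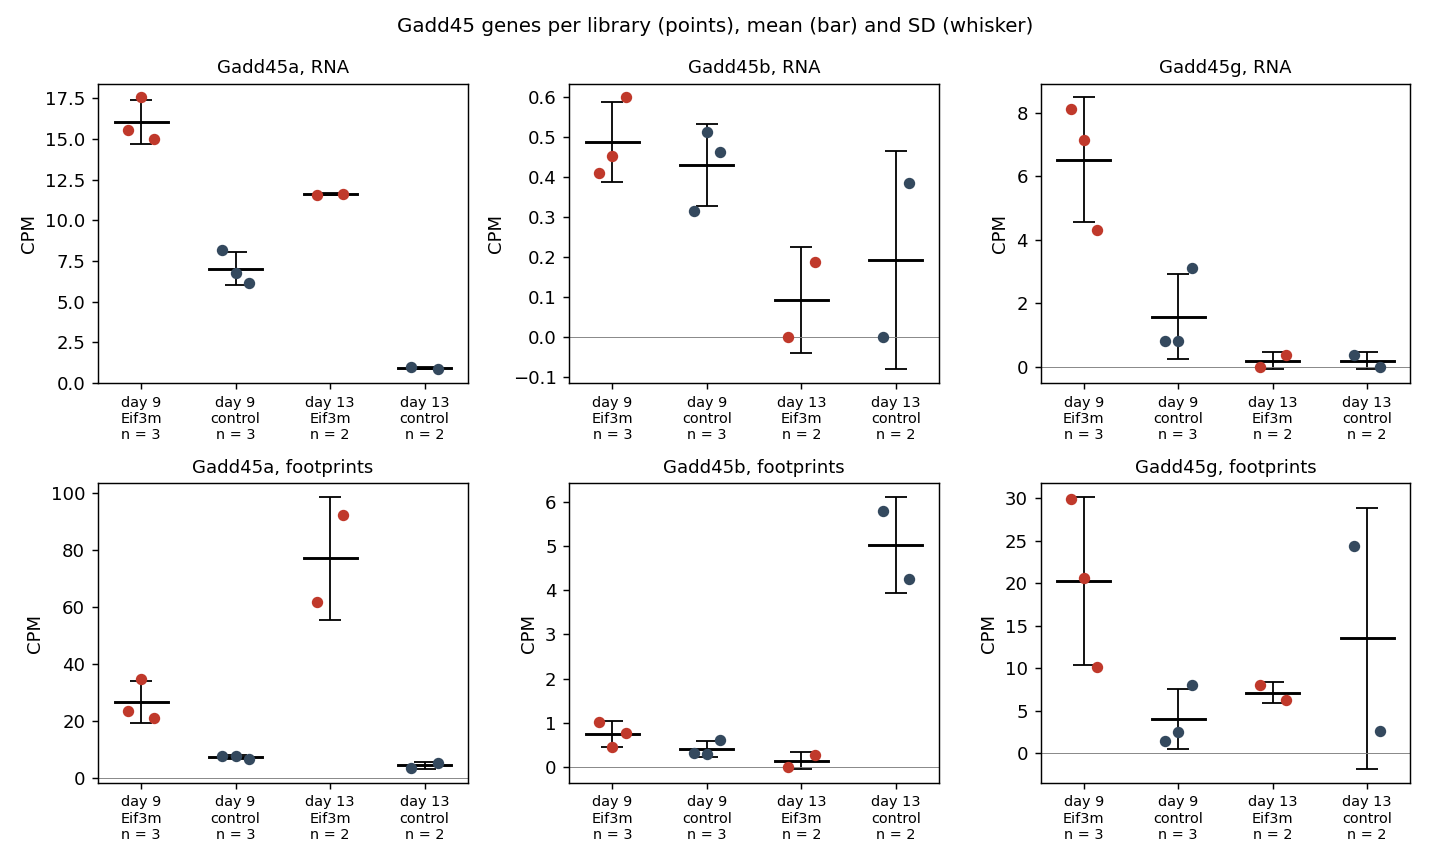
TMM-scaled level (CPM, linear axis from or below 0) of each Gadd45 gene in RNA (top) and ribosome footprints (bottom), 1 point per library, with the group mean as a bar and SD as whiskers; each panel has its own scale. Gadd45a separates the Eif3m from the control livers in all 4 pairs, Gadd45b is near 0 except in the day 13 control footprints (5.80 and 4.26 CPM), and Gadd45g separates the siRNA groups at day 9 but not at day 13.

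Gadd45b was detected at low counts, and its footprints in the day 13 control livers stood above those of all other groups. It passed the filter on low footprint counts only through those control livers, so each footprint test of it that uses them was selected for a difference and is given as a description. In day 9 RNA it had 17, 21 and 23 counts in the Eif3m livers, against 9, 20 and 15 counts in the control livers, and the levels overlapped (0.489 ± 0.0994 CPM in Eif3m livers and 0.430 ± 0.103 CPM in control livers, SD, n = 3 each). The log2 change was 0.17 (SE 0.60, edgeR adjusted p = 0.923). In day 13 RNA it had 0 and 1 counts in the Eif3m livers, against 0 and 7.5 counts in the control livers, too few to show a difference at this depth (count ratio Eif3m over control 0.256 per total count, exact 95% interval 0.00576 to 1.91; edgeR adjusted p = 0.463).

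Gadd45b footprints at day 9 had 5, 3 and 5 counts in the Eif3m livers, against 2, 2 and 4 counts in the control livers. The levels overlapped, and the log2 change was 0.84 (SE 0.67, edgeR adjusted p = 0.439). At day 13 there were 0 and 2 counts in the Eif3m livers, against 10 and 8 counts in the control livers, that is 0 and 0.273 CPM in the Eif3m livers against 5.80 and 4.26 CPM in the control livers. The groups did not overlap, and the summed counts of 2 in Eif3m and 18 in control livers give a ratio of 0.0558 per total count (exact 95% interval 0.00628 to 0.233, counting error only). The fitted log2 change of -4.38 (SE 0.86, edgeR adjusted p = 0.00201) depends on how a count of 0 is handled. The liver with 0 counts was the shallowest footprint library, in which 3 counts would be 1.83 CPM, still below both control values. With no filter beyond 1 count the fitted change was -4.34 with adjusted p = 4.36e-04. Without day 13 Eif3m replicate 2 it was -7.62 with adjusted p = 0.0706. DESeq2 gave no adjusted p.

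Markers of other cells moved in the day 13 footprints in which Gadd45b was lower in the Eif3m livers. Of 10 Kupffer cell markers 6 fell and 0 rose (0 at an unadjusted p below 0.05, 0 by DESeq2), and their summed level was 287 to 354 CPM in the Eif3m livers and 551 to 618 CPM in the control livers. In that comparison 12.4% of all genes were called. Of these markers 3 were called without day 13 control replicate 2 and 1 without day 13 Eif3m replicate 2. Of 10 stellate cell markers 3 fell, with sums of 754 to 932 CPM in the Eif3m livers and 1129 to 1188 CPM in the control livers. Lymphocyte marker sums were also lower, at 15.5 to 16.4 CPM in the Eif3m livers and 18.0 to 18.1 CPM in the control livers. Cholangiocyte marker sums went the other way, at 59.5 to 77.9 CPM in the Eif3m livers and 35.4 to 38.9 CPM in the control livers. Sinusoidal endothelial, neutrophil and proliferation sums overlapped between the groups. The part of these cells in the Gadd45b result was not tested. In footprints at day 9, where Gadd45a and Gadd45g were higher in the Eif3m livers, 4 of 6 tested monocyte markers rose, with sums of 134 to 154 CPM in the Eif3m livers and 54.3 to 64.9 CPM in the control livers. In day 9 footprints 14.7% of all genes were called. Without day 9 control replicate 2, 2 of the monocyte markers were called. Kupffer cell marker sums overlapped there, at 526 to 594 CPM in Eif3m and 574 to 725 CPM in control livers. Sinusoidal endothelial and cholangiocyte sums also overlapped. Lymphocyte, neutrophil, proliferation and stellate cell sums were higher in day 9 footprints in every Eif3m liver. Lymphocyte markers summed to 27.7 to 29.6 CPM in Eif3m and 15.4 to 22.4 CPM in control livers. Neutrophil markers summed to 10.5 to 14.4 CPM in Eif3m and 5.87 to 7.44 CPM in control livers. Proliferation markers summed to 16.6 to 26.0 CPM in Eif3m and 6.48 to 13.1 CPM in control livers, and stellate cell markers to 870 to 960 CPM in Eif3m and 741 to 792 CPM in control livers. The part of these cells in the Gadd45a and Gadd45g values was not tested. In day 13 footprints the monocyte sums were 110 to 123 CPM in the Eif3m livers and 113 to 116 CPM in the control livers. In day 13 RNA they were 67.3 to 69.2 CPM in Eif3m and 100 to 132 CPM in control livers. Kupffer, stellate, sinusoidal endothelial and lymphocyte sums were also lower there, while neutrophil, cholangiocyte and proliferation sums overlapped. In day 9 RNA Kupffer sums were lower, monocyte and proliferation sums higher, and the other non-hepatocyte sums overlapped. The part of these cells in the RNA values was not tested.

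Gadd45g was higher in each Eif3m liver than in any control liver at day 9, and varied between animals. Its day 9 RNA stood at 8.10, 7.13 and 4.31 CPM in the Eif3m livers, against 0.806, 0.821 and 3.11 CPM in the control livers. Control replicate 3 was well above the other controls and close to Eif3m replicate 3, the lowest of its group. The log2 change of 2.05 (SE 0.54) had an edgeR adjusted p of 0.0500224, just above the threshold of 0.05. With scaling by library totals the change was 2.19 with adjusted p = 0.0381, without control replicate 3 it was 2.99 with adjusted p = 0.01001, and with DESeq2 it was 2.03 with adjusted p = 0.294. Over 16 alternative settings of edgeR or DESeq2 the adjusted p ran from 2.06e-12 to 0.294, so the call turned on the setting.

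The footprints of Gadd45g at day 9 stood at 29.9, 20.6 and 10.2 CPM in the Eif3m livers, against 1.505, 2.48 and 8.07 CPM in the control livers. The 6 animals fell in the same order as in RNA, with Eif3m replicate 1 highest and control replicate 1 lowest, and control replicate 3 was again close to Eif3m replicate 3. The log2 change of 2.31 (SE 0.79) did not pass (edgeR adjusted p = 0.110). At day 13 Gadd45g had 0 and 2 counts in the Eif3m livers and 8.5 and 0 counts in the control livers in RNA, a ratio of 0.511 per total count (exact 95% interval 0.0529 to 2.56). Its day 13 footprints stood at 8.02 and 6.29 CPM in the Eif3m livers, against 24.4 and 2.66 CPM in the control livers. Both Eif3m livers lay between the control livers, and the log2 change was -0.96 (SE 1.19, edgeR adjusted p = 0.695); without day 13 control replicate 1 it was 1.34.

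**Figure D2:**
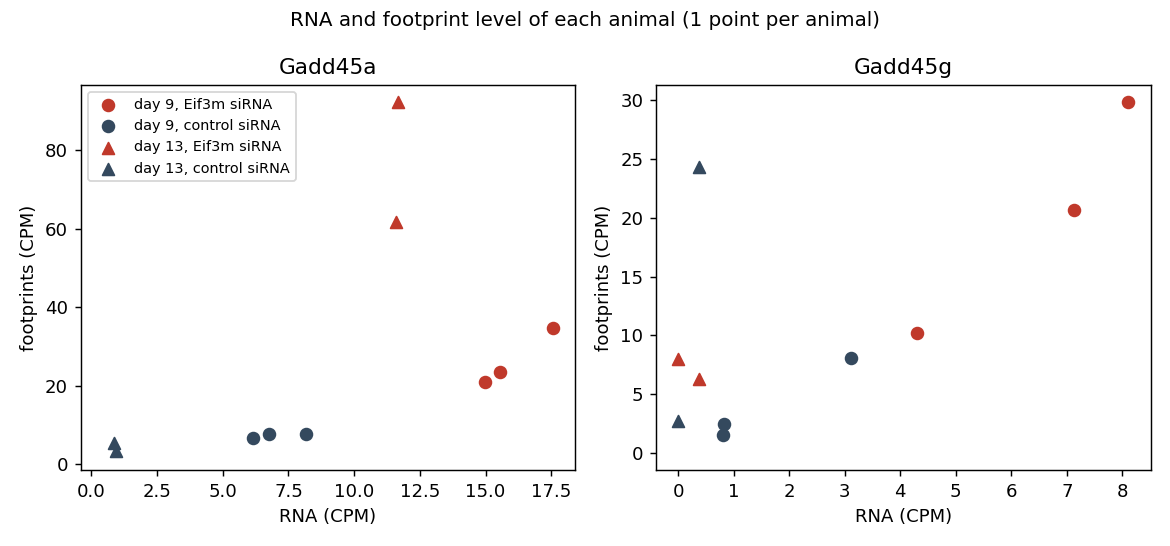
Footprint level against RNA level (both CPM, linear axes) for Gadd45a and Gadd45g, 1 point per animal, with colour for siRNA and shape for day. For Gadd45g the 6 day 9 livers keep 1 order on both axes, and for Gadd45a the 2 Eif3m livers of day 13 have 61.8 and 92.3 CPM of footprints at an RNA level of 11.6 and 11.7 CPM.

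Gadd45a alone among the 3 genes was called in day 9 RNA, where 5.67% of all tested genes were called, in day 13 RNA (16.0% of all) and in day 9 footprints (14.7%). In day 13 footprints (12.4%) Gadd45a was also called. The adjusted p of Gadd45b was below 0.05 there too, but it entered that test only through the control livers in which it was high and is not counted. Ordered by mean footprint level, the groups of Gadd45a ran from day 13 Eif3m (77.1 ± 21.5 CPM) over day 9 Eif3m (26.5 ± 7.34 CPM) and day 9 control (7.42 ± 0.606 CPM) to day 13 control (4.40 ± 1.31 CPM), with no overlap between neighbours. For Gadd45b day 13 control (5.03 ± 1.09 CPM) stood above the other groups, which had 0 to 5 counts per library. For Gadd45g day 9 Eif3m (20.2 ± 9.88 CPM) was highest by its mean and day 9 control (4.02 ± 3.54 CPM) lowest, but day 13 control, at 2.66 and 24.4 CPM, overlapped every other group.

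For Gadd45a the siRNA effect itself differed between the days. The effect at day 13 exceeded that at day 9 by 2.47 on the log2 scale in RNA (SE 0.30, edgeR adjusted p = 0.00648; 1.23% of all genes were called) and by 2.31 in footprints (SE 0.44, adjusted p = 0.0149; 0.819% of all genes were called). Without day 13 Eif3m replicate 2 the adjusted p was 0.0638 in RNA and 0.166 in footprints, and the footprint difference also lost its call without day 13 control replicate 1 (0.151) or replicate 2 (0.0907). For Gadd45b the footprint effect at day 13 was lower than at day 9 on the log2 scale (difference -5.22, SE 1.13, edgeR adjusted p = 0.0303), a description only, since the day 13 control livers alone took it past the filter. The adjusted p rose above 0.05 when any 1 of 7 of the 10 libraries was left out (day 9 control replicates 1 and 2, day 9 Eif3m replicate 3 and each day 13 library), to between 0.0550 and 0.337. For Gadd45g the footprint difference of -3.27 did not pass (adjusted p = 0.445).

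In the control livers alone, Gadd45a RNA was lower at day 13 than at day 9 (log2 change -2.94, SE 0.24, edgeR adjusted p = 1.64e-07), and Gadd45g RNA changed by -3.01 (SE 0.99, adjusted p = 0.0161; 0.198 without day 13 control replicate 2, which had 0 counts). In that comparison 72.7% of all genes were called, and the kit changed with the day. The summed level of 24 immediate early genes, which are induced soon after a stimulus, was likewise 15.6 to 24.4 CPM in day 13 control RNA and 178 to 257 CPM in day 9 control RNA, but 193 to 226 CPM in day 13 control footprints and 224 to 293 CPM in day 9 control footprints. In the footprints of control livers, made with 1 kit, Gadd45a changed by -0.74 (SE 0.41, adjusted p = 0.275) and Gadd45b by 3.61 (SE 0.65, adjusted p = 0.00163), where 10.3% of all genes were called. The Gadd45b value sets the livers that took it past the filter against others and is a description. Day also coincides here with the set of animals and libraries. With a block for the replicate number the Gadd45b value was 3.55 with adjusted p = 0.0628.

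Translational efficiency, the footprint change minus the RNA change, passed the edgeR test for none of the 3 genes. For Gadd45a at day 9, footprints over RNA stood at 1.52, 1.98 and 1.41 in the Eif3m livers, against 0.940, 1.16 and 1.09 in the control livers. The ratios did not overlap, and the fitted change was 0.64 on the log2 scale (SE 0.27, edgeR adjusted p = 0.99, unadjusted p = 0.0266); with the animal as a block it was 0.61 with adjusted p = 0.541. At day 13 the ratio was 5.34 and 7.92 in the Eif3m livers, against 3.66 and 6.12 in the control livers. These overlapped, and the change was 0.41 (SE 0.52, adjusted p = 0.875). Over all genes 0% were called at day 9 (0 of 14236 by edgeR, 692 at an unadjusted p below 0.05, 4 by DESeq2, 8 with the animal block) and 0.0211% at day 13 (3 genes, 12 with the animal block). For Gadd45b at day 13 the change of -2.64 (SE 2.57, edgeR adjusted p = 0.804) rests on RNA counts of 0 to 7.5. By limma on ratios per animal it was -2.92 with adjusted p = 0.0184. Efficiency values of Gadd45b are a description, since it passed the efficiency filter only through the day 13 control footprints in which it was high. For Gadd45g the efficiency change was 0.26 at day 9 and -0.01 at day 13 (SE 1.06 and 0.92).

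**Figure D3:**
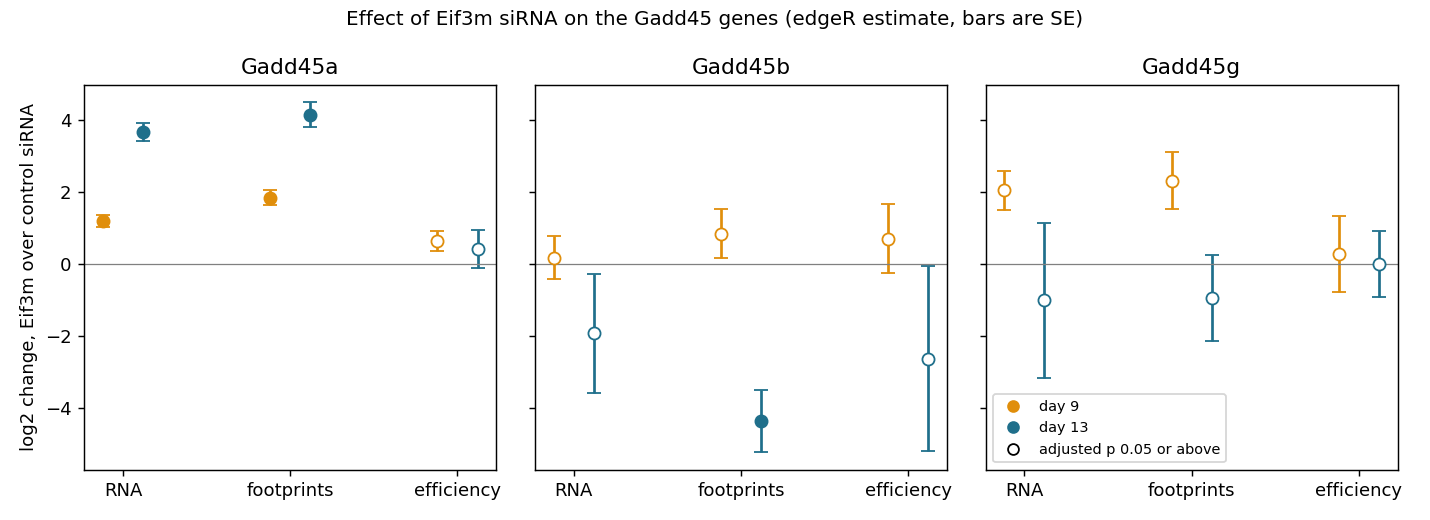
Log2 change with Eif3m siRNA over control (edgeR estimate, whiskers are SE) for RNA, footprints and efficiency at both days; filled points have an adjusted p below 0.05. Gadd45a is filled for RNA and footprints on both days and at 0.64 and 0.41 in efficiency, Gadd45b is filled only for day 13 footprints, a test it entered through the control livers in which it was high, and Gadd45g has no filled point.

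For the lists that follow, the share of all genes called was 5.67% in day 9 RNA, 16.0% in day 13 RNA, 14.7% in day 9 footprints and 12.4% in day 13 footprints. Nothing particular to a list is read from its count. Of 12 MAP kinase partners and downstream kinases, 0 rose and 1 fell in day 9 RNA (0 and 3 at an unadjusted p below 0.05), and 1 rose and 2 fell in day 13 RNA. Of 11 tested in footprints 0 rose and 3 fell at day 9 and 0 rose and 1 fell at day 13. Their median log2 change was 0.0064, -0.23, -0.27 and -0.013 in that order, where the median of all genes was -0.0045, -0.16, 0.018 and 0.016. Map2k3, a kinase that activates p38, fell each time, by 0.66 and 0.83 on the log2 scale in RNA at day 9 and day 13 and by 0.59 and 0.73 in footprints (edgeR adjusted p 0.0268, 0.0150, 0.0104 and 0.0398). With scaling by library totals none of the 4 Map2k3 values passed (adjusted p 0.0874, 0.0979, 0.0964 and 0.238). Of 17 alternatives, 8 ended its call in day 9 RNA, each day 9 library left out among them. In day 13 RNA 3 did, 1 of them without day 13 Eif3m replicate 1, and in day 9 footprints 2 did, 1 of them without day 9 control replicate 3. In day 13 footprints 9 did, and without day 13 control replicate 2 the change was -0.37 with adjusted p = 0.514. Map2k6, the other main p38 kinase, changed by -0.99 in day 9 footprints (adjusted p = 0.0133) and by 1.15 in day 13 RNA (adjusted p = 0.00987). Map3k5, the kinase ASK1, changed by -0.77 in day 13 RNA (adjusted p = 0.00783), and Mapk14, p38 alpha, by -0.40 in day 9 footprints (adjusted p = 0.0393); with library totals neither of these passed (0.0774 and 0.379), and 12 of 17 alternatives ended the call of Mapk14. In day 9 footprints 1 MAP kinase gene was called without day 9 control replicate 2 or 3 or day 9 Eif3m replicate 2 or 3. Map3k4, the partner that Gadd45 proteins activate, had log2 changes of -0.44, -0.32, -0.27 and -0.29 in the same order and did not pass (smallest adjusted p = 0.0706); it is named for its role, outside the rule for naming genes.

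Of the cell cycle partners, 1 of 5 tested rose in day 9 RNA, 1 of 5 fell in day 13 RNA, and 1 of 3 tested rose in footprints on each day. The riser was Cdkn1a. It passed the filter on low counts only through Eif3m livers in which it was high, in RNA and in footprints, so its rises are a description. Its footprints averaged 31.8 ± 8.95 CPM in Eif3m livers and 0.864 ± 0.336 CPM in control livers at day 9 (SD, n = 3 each), and 64.4 ± 7.68 CPM in Eif3m livers and 1.40 ± 0.478 CPM in control livers at day 13 (SD, n = 2 each), log2 changes of 5.15 and 5.53. In day 13 RNA it was at most 0.188 CPM in any library. Cdc25b, a phosphatase that activates Cdk1, fell by 2.20 on the log2 scale in day 13 RNA (edgeR adjusted p = 0.0262). That call ended without day 9 Eif3m replicate 1 or 3, day 13 control replicate 1 or day 13 Eif3m replicate 1. Pcna, also named for its role, did not pass (log2 changes between -0.25 and 0.08). Of 9 tested DNA repair and demethylation partners, 0 were called in day 9 RNA (1 at an unadjusted p below 0.05, 0 by DESeq2) and 0 in day 9 footprints (0 and 0). At day 13 the repair endonuclease gene Apex1 rose in footprints (0.64, adjusted p = 0.0435) and the dioxygenase gene Tet3 fell in RNA (-1.41, adjusted p = 0.0499; 0.0859 with library totals), 1 of 9 each. The call of Apex1 ended without any 1 of the day 13 libraries, and that of Tet3 in 11 of 17 alternatives.

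Of 19 tested regulators known upstream of Gadd45 genes, 2 fell in day 9 RNA, 3 in day 13 RNA, 1 in day 9 footprints and 2 in day 13 footprints, and 0 rose in each by edgeR (4, 1, 2 and 3 at an unadjusted p below 0.05; 2, 1, 0 and 1 by DESeq2). All genes were called at 5.67%, 16.0%, 14.7% and 12.4%. Without 1 library the count of regulators reached 0 in each comparison. This was so in day 9 RNA without day 9 Eif3m replicate 2 or 3 and in day 13 RNA without day 13 Eif3m replicate 2, while without day 13 control replicate 2 it was 6 in that RNA. It was 1 in day 9 RNA without day 9 control replicate 1, and 1 in day 13 RNA without day 9 Eif3m replicate 1 or 3 or day 13 control replicate 1. It was so in day 9 footprints without day 9 control replicate 1 or 3, day 9 Eif3m replicate 2 or 3 or either day 13 control liver. It was so in day 13 footprints without any day 13 library or without day 9 Eif3m replicate 3. Nr1i3, the receptor CAR, fell by 0.85 on the log2 scale in day 9 RNA, by 1.11 in day 13 RNA and by 1.36 in day 13 footprints (edgeR adjusted p 0.0237, 0.00980 and 0.0344), and its day 13 footprints were 33.4 ± 1.08 CPM in Eif3m livers and 86.3 ± 3.82 CPM in control livers (SD, n = 2 each). Egr1, an early response factor, fell at day 9 by 2.38 in RNA and 2.22 in footprints (adjusted p 0.0208 and 0.0488). Ppara, a fatty acid receptor, fell by 0.64 in day 13 footprints, and Smad3, which carries TGF-beta signals, by 1.89 in day 13 RNA. Foxo4, named after its values were seen, fell by 0.73 in day 13 RNA. Of 17 alternatives 8 ended the call of Nr1i3 in day 13 footprints, where without day 13 Eif3m replicate 2 the adjusted p was 0.256. For Egr1 10 did so in day 9 footprints and 5 in day 9 RNA, and 8 each ended those of Ppara and Smad3. With library totals the changes of Ppara and of Egr1 and Nr1i3 in these footprints did not pass (adjusted p 0.293, 0.0532 and 0.0599). Trp53 itself did not pass (log2 changes 0.12 and -0.43 in RNA at day 9 and day 13, 0.15 and 0.50 in footprints).

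Other p53 targets, with Gadd45a left out of the list, moved in both directions. In RNA 13 of 28 rose and 2 fell at day 9 and 6 rose and 1 fell at day 13, and in footprints 14 of 26 rose and 2 fell at day 9 and 9 rose and 1 fell at day 13. Of all genes 407 of 16444 rose and 525 fell in day 9 RNA, and 1002 rose and 1623 fell in day 13 RNA. In footprints 835 of 12213 rose and 965 fell at day 9, and 748 rose and 765 fell at day 13. The median log2 change of the targets was 0.87, 0.10, 0.82 and 0.90 in that order, beside -0.0045, -0.16, 0.018 and 0.016 for all genes. Aen, a nuclease gene, rose by 2.38 and 2.27 in footprints at day 9 and day 13, and the kinase gene Plk2 by 0.65 and 2.44 (edgeR adjusted p of at most 0.0139). Phlda3, an Akt inhibitor, changed by 3.54 and 4.03. It passed the filter on low footprint counts only through Eif3m livers in which it was high, so these values are a description. The same holds for Cdkn1a, also on this list. The counts of risers in day 9 RNA and in footprints include both genes. The members that fell, named here after their values were seen, were Bbc3, which encodes the cell death protein PUMA, in both assays at day 9 (-1.83 in RNA and -1.93 in footprints), Pltp, a phospholipid transfer protein gene, in RNA on both days and in day 13 footprints, and Ei24 in day 9 footprints. In day 9 RNA 9 members were called without day 9 control replicate 3 or without day 9 Eif3m replicate 2, and in day 13 footprints 4 were called without day 13 Eif3m replicate 2 and 5 without day 13 control replicate 2.

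Of the genes whose names share the growth arrest and DNA damage root, Ddit3 (GADD153, the stress factor CHOP) rose in RNA. Its log2 change was 2.62 at day 9 and 2.75 at day 13 (edgeR adjusted p of at most 7.60e-04). In footprints it changed by 3.54 and 4.41. Those values are a description, since only Eif3m livers, in which Ddit3 was high, took it past the filter on low footprint counts. Its day 9 RNA was 30.3 ± 6.95 CPM in Eif3m livers and 4.92 ± 0.626 CPM in control livers (SD, n = 3 each). Ppp1r15a (GADD34), which directs the phosphatase that acts on eIF2 alpha, changed by 0.24 and 0.32 in RNA and did not pass (smallest adjusted p = 0.608), and Gadd45gip1, which encodes an interactor of Gadd45 proteins, did not pass either (smallest adjusted p = 0.259). Of the ATF4 and CHOP targets, 6 of 23 rose and 1 fell in day 9 RNA, 4 of 23 rose and 2 fell in day 13 RNA, 7 of 20 rose and 1 fell in day 9 footprints and 6 of 20 rose and 2 fell in day 13 footprints. Of all genes 5.67%, 16.0%, 14.7% and 12.4% were called in that order. Atf5 rose by 2.18 and 2.85 in footprints at day 9 and day 13, and the secreted stress factor gene Gdf15 by 1.65 and 4.95. The hormone gene Fgf21 changed by 3.28 in day 9 footprints. That value is a description, since Fgf21 passed the filter on low footprint counts only through Eif3m livers in which it was high. The footprint counts of risers include Ddit3 on each day and Fgf21 at day 9. Shmt2, a mitochondrial enzyme gene of serine metabolism, fell in all 4 comparisons and is named after its values were seen. Leaving out day 9 control replicate 2 or 3 or day 9 Eif3m replicate 2 or 3 left 4 of the targets called in day 9 RNA. In the same way leaving out day 13 Eif3m replicate 2 left 2 in day 13 RNA, and leaving out that animal or day 13 control replicate 2 left 5 in day 13 footprints.

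Immediate early genes, the kind of gene that Gadd45b and Gadd45g are often grouped with, moved in both directions. In footprints 3 of 17 rose and 3 fell at day 9, and 4 rose and 0 fell at day 13 (1 at an unadjusted p below 0.05, 0 by DESeq2). Of all genes 14.7% and 12.4% were called. At day 9, 3 were called without day 9 control replicate 1 or day 9 Eif3m replicate 1 or 3. At day 13, 1 was called without day 13 control replicate 1 and 0 without day 13 control replicate 2 or day 13 Eif3m replicate 2. Jun, an AP-1 subunit, rose by 1.18 and 1.01 and Btg2 by 1.10 and 0.93, while Junb and Atf3 rose at day 13 by 1.82 and 1.96. Without day 13 Eif3m replicate 2 none of these 4 passed at day 13 (adjusted p 0.421, 0.494, 0.115 and 0.145). In RNA 2 of 20 rose and 1 fell at day 9 (0 or 1 called when any day 9 library was left out and 6 without either day 13 control liver; 5.67% of all genes), and 0 were called at day 13 (2 at an unadjusted p below 0.05, 2 by DESeq2).

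**Figure D4:**
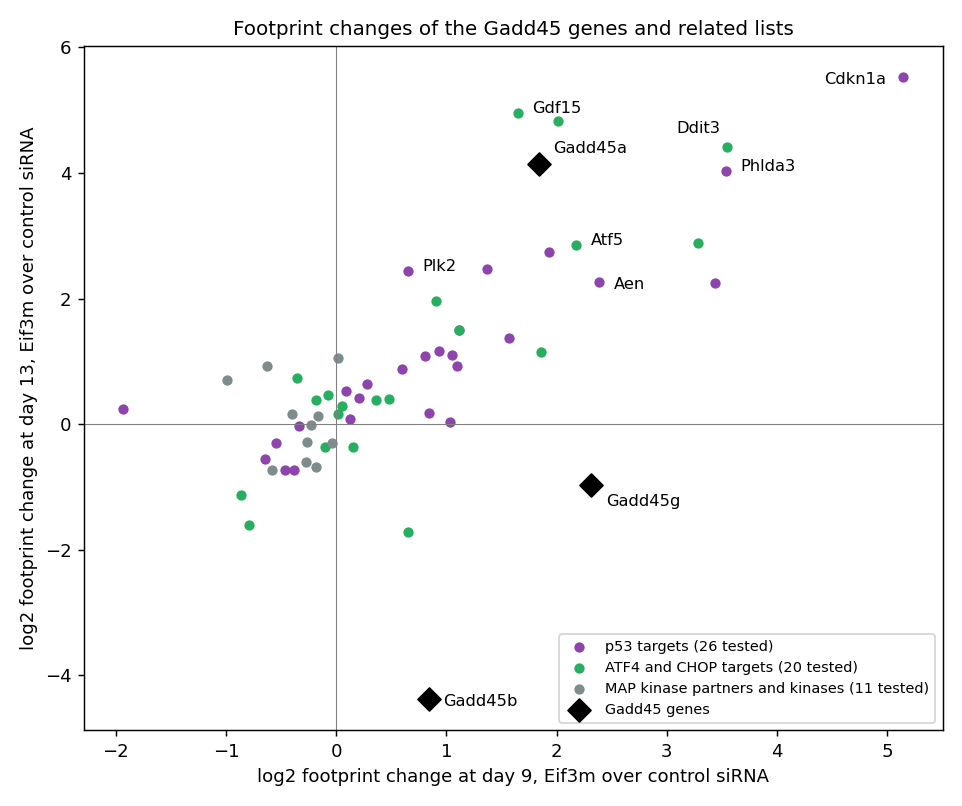
Log2 footprint change with Eif3m siRNA over control at day 13 (vertical) against day 9 (horizontal), 1 point per gene, for the Gadd45 genes (diamonds), p53 targets, ATF4 and CHOP targets, and MAP kinase partners. Gadd45a (1.84, 4.15) lies in the upper right, as do Atf5, Gdf15, Aen and Plk2. Cdkn1a, Ddit3 and Phlda3 lie there too, but passed the filter only through Eif3m livers in which they were high. Gadd45b (0.84, -4.38) and Gadd45g (2.31, -0.96) lie to the lower right, and Gadd45b passed the filter only through control livers in which it was high. The axes share no control livers.

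Likeness across the 10 footprint libraries was measured as Pearson r of log2(CPM + 0.5), among 7830 to 7831 genes with a mean of at least 5 CPM, and is a description, since the libraries share their groups. The 3 genes most like Gadd45a were Bccip (r = 0.984), Srpk1 (0.984) and Stbd1 (0.980), with log2 footprint changes at day 9 and day 13 of 0.39 and 0.70, of 0.53 and 1.17 and of 1.09 and 1.88 in that order. By Spearman rho they ranked 41, 6 and 28. Those most like Gadd45b were Col6a2 (0.938), Lama2 (0.926) and Lgals3bp (0.926), with changes of -1.56, -1.48 and -0.99 in day 13 footprints. By Spearman rho they ranked 2, 20 and 33. With a smaller CPM added before the log they ranked 3, 28 and 26, and with a larger one 7, 2 and 1. Those most like Gadd45g were Brpf3 (0.933), Abhd2 (0.892) and Dusp1 (0.880), which by Spearman rho ranked 2, 1 and 3. Among the 3 Gadd45 genes themselves, r in footprints was -0.65 between Gadd45a and Gadd45b, 0.23 between Gadd45a and Gadd45g and 0.24 between Gadd45b and Gadd45g.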

How the data were processed

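RNA-seq and ribosome footprint libraries of mouse liver were counted per gene symbol by the authors, who deposited expected counts for 20 libraries in 1 table. The submitters' processing notes name cutadapt, Bowtie and Bowtie2; versions, the counting rule, strand use and the genome build are not given in the sources used. Of nonzero values 44.3% are not whole, all 100% being sixths to within 0.01. Counts were rounded and fitted in R 4.3.3 with edgeR 4.0.16 (filterByExpr, TMM, robust quasi-likelihood F test, two-sided, 4 groups per assay), with Benjamini-Hochberg adjustment over all genes tested and a threshold of 0.05. Efficiency was fitted in 1 model over 20 libraries with 8 groups. The SE is the log2 change over the square root of F. Groups come from the labels.

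Libraries of 1 animal pair by the labels' animal codes, and deviated together (r 0.134 to 0.521). An exact permutation test of 3 against 3 animals cannot go below p = 0.1, so tests share spread across genes. Intervals (95%) and the floor of 3 counts cover counting error only. Named genes are the Gadd45 genes, other GADD genes and Gadd45gip1, up to 4 called members of each list by smallest adjusted p, and the 3 genes most like each Gadd45 gene. Alternatives were size factors of DESeq2 1.42.0, library totals, 2 other filters, DESeq2, days fitted alone, TMM over all libraries, limma 3.58.1 on ratios, a replicate or animal block, and each library left out; a crossed block was chosen after seeing the data. Fits were tested on simulated data. The members and lists were chosen with earlier results of these data known. Promoter windows are from RefSeq (GRCm38.p6), in which 29675 of 38784 symbols matched.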

Additional observations from a re-analysis of the deposited data

Results flagged for a closer look

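The effect of Eif3m siRNA on Gadd45a differed between the days by a test of the difference itself: it was larger at day 13 than at day 9 by 2.47 on the log2 scale in RNA (edgeR adjusted p = 0.00648, without day 13 Eif3m replicate 2 0.0638) and by 2.31 in footprints (adjusted p = 0.0149, up to 0.166 without 1 library). In RNA the kit changed with the day, and in footprints it did not, but the set of animals and libraries changed with the day in both assays. For Gadd45b the effect on footprints differed by -5.22 (adjusted p = 0.0303), a description only, since Gadd45b passed the filter on low footprint counts only through the day 13 control livers in which it was high, with 0 and 2 counts in the day 13 Eif3m livers against 10 and 8 counts in the day 13 control livers, and 5, 3 and 5 counts in the Eif3m livers against 2, 2 and 4 counts in the control livers at day 9. That difference rests on few counts and on the day 13 control livers, whose Gadd45b footprints also exceeded those of the day 9 control livers by 3.61.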

How the results depend on the processing

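The 4 rises of Gadd45a within a day kept their direction and call under all 17 alternatives each. Day 9 RNA of Gadd45g passed with library totals (2.19) and with no filter beyond 1 count (2.06). With library totals the share of rises among called genes in day 9 RNA was 70.8% in place of 43.7%, in day 13 RNA 59.7% in place of 38.2%, in day 9 footprints 83.6% in place of 46.4% and in day 13 footprints 85.1% in place of 49.4%, and the median of all genes moved by up to 0.34 in footprints, so smaller changes of listed genes depend on the scaling. The number of genes called ran from 292 to 3445 in day 9 RNA (932 as reported), from 969 to 4265 in day 13 RNA (2625), from 1129 to 2753 in day 9 footprints (1800) and from 429 to 2358 in day 13 footprints (1513). For the difference between days it ran from 0, without day 13 Eif3m replicate 2, to 2065 in RNA (202) and from 7 to 242 in footprints (100), in control livers over the days from 7385 to 12687 in RNA (11960) and from 270 to 1654 in footprints (1264), and for efficiency from 0 to 18 at day 9 (0), 0 to 438 at day 13 (3) and 0 to 59 for the difference (0, with 765 at an unadjusted p below 0.05, 4 by DESeq2). Called changes of the other named genes kept direction in each alternative run, 937 values past the threshold and 217 not.

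Replicate numbers of the Eif3m and control groups stand for different animals and share only a number (r -0.174 to 0.193). With that replicate block, Gadd45b in control RNA over the days was -5.97 and passed, Gadd45g in control RNA over the days was -2.30 and did not, the Gadd45b footprint difference between days was -5.15 and its footprint change between control livers 3.55, both no longer past the threshold, and 678, 2332, 1594 and 1232 genes were called in day 9 RNA, day 13 RNA, day 9 footprints and day 13 footprints. A crossed replicate block, added because r was negative for same-numbered day 13 RNA libraries (-0.126), called 2351 genes in day 13 RNA. With 2 animals in each group the sign of that r only follows the numbering. With the animal as the block, no efficiency change of a Gadd45 gene passed. By limma on ratios per animal the Gadd45b efficiency change at day 13 was -2.92 (adjusted p = 0.0184). This value is a description only, since the day 13 control footprints in which Gadd45b was high took it past the filter. By the same limma fit the Gadd45a difference in efficiency between days was 0.37. The Gadd45g efficiency change at day 13 was 0.23 with library totals, 0.090 with no filter beyond 1 count and 0.11 with TMM over all libraries. The cause of these shifts was not tested.

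Leaving out each library in turn gave, for Gadd45b, -0.0172 to 0.32 in day 9 RNA, -5.62 to 3.57 in day 13 RNA, -7.62 to -4.07 in day 13 footprints, -5.78 to 3.41 for the RNA difference between days, -8.47 to -4.93 for the footprint difference and -6.72 to -0.20 in control RNA over the days. For Gadd45g it gave 1.72 to 2.99 in day 9 RNA, -5.61 to 4.49 in day 13 RNA, -1.84 to 1.34 in day 13 footprints, -7.66 to 2.44 for the RNA difference, -8.56 to -2.05 in control RNA and -0.59 to 2.70 in control footprints over the days, -2.49 to 4.14 for efficiency at day 13 and -2.75 to 3.88 for its difference. For Gadd45a it gave 2.39 to 2.63 for the RNA difference, 1.96 to 2.66 for the footprint difference and -0.50 to 0.26 for the efficiency difference. Where 1 animal remained in a group, its spread was taken from the others. A mean of at least 5 CPM left Gadd45b untested throughout and Gadd45g in RNA, and at 0 to 8.5 counts per library neither gene's day 13 RNA can show a difference smaller than its interval.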
